A study of Homo sapiens with 6 samples.

Results

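The 36 genes described here encode enzymes of cholesterol synthesis and of fatty acid synthesis and desaturation, together with the proteins that sense, move and respond to sterols. They were chosen by symbol among the 31966 genes of the deposited count table, all 36 had a single row there, and 35 passed the filter on low counts. They were measured by RNA sequencing in Kasumi-1 cells, a long-established line of human acute myeloid leukaemia, in 3 libraries labelled Control and 3 labelled FBL knockdown. The control cells expressed a hairpin RNA against luciferase (shLUC), a reporter gene that human cells lack, and the knockdown cells a hairpin against FBL (shFBL). Both hairpins were doxycycline-inducible, and all 6 samples received 100 ng/ml doxycycline for 72 h. FBL encodes fibrillarin, the nucleolar methyltransferase that modifies the ribose of ribosomal RNA. The labels do not say whether the replicates came from separate cultures, so the p-values reflect a spread that may be no more than technical. A single line and a single control hairpin were used, and no second hairpin against FBL appears in the samples analysed here.

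Cholesterol is built from acetyl-CoA. Acetyl-CoA is condensed to hydroxymethylglutaryl-CoA, which is reduced to mevalonate and turned into prenyl diphosphates. Farnesyl diphosphate is then either joined to squalene, which is closed to lanosterol and trimmed to cholesterol, or used for protein prenylation, ubiquinone and dolichol. Fatty acids are built from acetyl-CoA as well, through malonyl-CoA, and are then lengthened and desaturated. Both pathways are driven by the sterol regulatory element binding proteins (SREBPs), membrane-bound transcription factors that SCAP carries from the endoplasmic reticulum to the Golgi when sterols are low and that the INSIG proteins hold back when sterols are high. The liver X receptors (LXRs) respond to oxysterols, raise the export of cholesterol and activate SREBF1. Leukaemia cells make both lipids for membrane growth.

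The promoters of 6 members are shown because their transcripts cover the range seen here: FDPS had the largest decrease, LSS is a sterol enzyme that fell, SREBF1 and SREBF2 encode the 2 SREBP precursors and fell and did not pass, respectively, and INSIG1 and MSMO1 rose. Each sequence is the RefSeq promoter window of 300 bases (250 before to 50 after the annotated start) on GRCh38.p14, 5′ to 3′ on the strand of the gene, with matches to 3 motifs in capitals. The motifs were the sterol regulatory element TCACNCCAC, the CCAAT box CCAAT and the GC box GGGCGG, each searched on both strands, and overlapping matches were each counted. The SREBP proteins are known to bind the first of these, NF-Y the second and SP1 the third, and NF-Y and SP1 commonly act together with SREBPs. FDPS lies at chr1:155308616-155308915 on the plus strand, LSS at chr21:46228725-46229024 on the minus strand and SREBF1 at chr17:17836937-17837236 on the minus strand. SREBF2 lies at chr22:41832855-41833154, INSIG1 at chr7:155297628-155297927 and MSMO1 at chr4:165327419-165327718, all on the plus strand.
FDPS: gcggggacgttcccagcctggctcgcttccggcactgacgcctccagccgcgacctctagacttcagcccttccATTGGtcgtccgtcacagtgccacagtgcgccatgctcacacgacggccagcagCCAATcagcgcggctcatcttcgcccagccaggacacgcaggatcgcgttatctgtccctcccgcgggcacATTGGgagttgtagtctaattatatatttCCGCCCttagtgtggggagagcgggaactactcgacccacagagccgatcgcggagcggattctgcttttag
LSS: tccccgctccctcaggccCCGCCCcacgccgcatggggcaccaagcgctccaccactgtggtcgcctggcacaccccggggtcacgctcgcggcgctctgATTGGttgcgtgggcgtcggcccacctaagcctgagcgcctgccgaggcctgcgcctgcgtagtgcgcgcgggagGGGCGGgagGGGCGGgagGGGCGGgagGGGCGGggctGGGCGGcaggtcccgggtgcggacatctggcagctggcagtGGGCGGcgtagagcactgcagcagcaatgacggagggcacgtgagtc
SREBF1: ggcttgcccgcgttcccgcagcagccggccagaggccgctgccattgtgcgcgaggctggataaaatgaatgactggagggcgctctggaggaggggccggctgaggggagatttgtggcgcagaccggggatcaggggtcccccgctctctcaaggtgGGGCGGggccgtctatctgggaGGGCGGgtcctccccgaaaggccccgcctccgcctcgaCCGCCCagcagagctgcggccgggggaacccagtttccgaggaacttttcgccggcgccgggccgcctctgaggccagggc
SREBF2: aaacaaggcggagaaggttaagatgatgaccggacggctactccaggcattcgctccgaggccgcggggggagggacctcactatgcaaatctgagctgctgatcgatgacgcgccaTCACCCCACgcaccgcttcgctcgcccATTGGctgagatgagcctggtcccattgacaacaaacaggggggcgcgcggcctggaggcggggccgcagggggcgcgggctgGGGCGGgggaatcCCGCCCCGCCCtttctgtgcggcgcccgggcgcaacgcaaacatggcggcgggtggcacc
INSIG1: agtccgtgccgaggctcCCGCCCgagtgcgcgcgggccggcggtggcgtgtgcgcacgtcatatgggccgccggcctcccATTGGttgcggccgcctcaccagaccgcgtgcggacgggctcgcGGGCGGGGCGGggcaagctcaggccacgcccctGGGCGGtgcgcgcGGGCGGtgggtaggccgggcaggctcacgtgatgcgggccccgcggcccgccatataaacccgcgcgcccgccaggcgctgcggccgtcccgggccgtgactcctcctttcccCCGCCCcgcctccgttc
MSMO1: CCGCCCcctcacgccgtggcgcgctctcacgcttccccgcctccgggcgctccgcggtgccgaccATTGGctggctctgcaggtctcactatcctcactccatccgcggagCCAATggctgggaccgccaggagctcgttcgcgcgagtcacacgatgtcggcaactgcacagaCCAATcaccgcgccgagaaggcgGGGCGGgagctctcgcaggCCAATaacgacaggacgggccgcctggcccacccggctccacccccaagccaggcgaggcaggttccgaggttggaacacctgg
FDPS held 3 CCAAT boxes and 1 GC box, and MSMO1 held 4 CCAAT boxes and 2 GC boxes. LSS held 1 CCAAT box and 7 GC boxes, and INSIG1 held 1 and 6. SREBF2 held the sterol regulatory element, 1 CCAAT box and 3 GC boxes, whereas SREBF1 held 3 GC boxes alone.

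A promoter entry was found for 31 of the 36 members, and 9 of these had several start sites, so a member counts as holding a motif if any of its windows holds it. A CCAAT box was present in 22 of 31 members (71.0%), against 34.6% of all 35116 promoter windows in the table and 42.0% of the 11040 tested genes with a window. A GC box was present in 29 of 31 (93.5%), against 45.0% of windows and 75.8% of tested genes. These are shares of letters and not of binding sites. The sterol regulatory element in this form was in 1 of 31 members (3.23%), against 1.13% of windows and 1.40% of tested genes. No match says only that these letters are not in this window. Members that fell and members that did not pass the test held the CCAAT box in similar counts, 11 of 15 and 9 of 12, and 2 of the 3 members that rose held it.

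The 6 libraries held 85556322 to 103148412 counts each. FBL itself stood at 544 to 580 CPM, the count of a gene relative to the scaled library total, in controls and at 32.4 to 54.0 in knockdown libraries. Its log2 fold change, always given here as knockdown against control, was -3.67 ± 0.16 (SE, 3 libraries a group; adjusted p = 3.93e-06). Adjusted p-values are Benjamini-Hochberg values from edgeR's quasi-likelihood test over all genes tested. Of 6 markers of these cells, 5 were at 10 CPM or more in every library, and the exception was PTPRC, the pan-leukocyte marker CD45, at 0.645 to 1.12 CPM. The summed level of the 6 markers was 6837 to 8341 CPM in controls, and in knockdown libraries it was 5091 to 6119 CPM. Nearly all of that sum was MPO, the granule peroxidase of myeloid cells, which fell from 7254 to 5411 CPM on average (adjusted p = 0.0134), and the other 5 markers did not pass (adjusted p of 0.0682 to 0.698). The part of this difference in the members' values was not tested. All 9 measured markers of epithelial, fibroblast, T and erythroid cells were under 1 CPM in every library, and HBA1, which was listed at 0 in all 3 controls, was among them. The libraries also differed in how well GC-rich transcripts were represented. Among the 10% of genes richest in GC, the median log2 deviation from the mean of the libraries was -0.27 in control 1 and 0.26 in control 2, and it lay between -0.09 and 0.13 in the other 4 libraries.

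Knockdown of FBL was accompanied by lower levels of many lipid synthesis transcripts, in an uneven pattern. Of the 35 tested members, 17 fell (48.6%), 3 rose (8.57%) and 15 did not pass the threshold of 0.05 on the adjusted p. Change was widespread in these data: of all 18486 genes tested, 17.0% fell, 15.8% rose and 32.8% changed in either direction, against 57.1% of the members. In bulk RNA, fewer cells with a transcript and less of it per cell cannot be told apart. With upper-quartile scaling the split over all genes was 2528 lower and 3597 higher. The median log2 fold change of the members was -0.23, and that of all genes tested was -0.01. The members were expressed more than most genes, and among genes at a mean of 10 CPM or more, 15 of 26 members (57.7%) fell, against 27.7% of 7206 genes. The 2 groups of libraries did not overlap for 21 of 35 members, and they did not overlap for 45.2% of all genes tested. At 10 CPM or more they did not overlap for 16 of 26 members and for 4005 of 7206 genes. Among the 20 members that changed, the exception was NR1H3, whose groups overlapped. The call held in every alternative analysis for 11 of the 17 members that fell (ACAT2, PMVK, FDPS, FDFT1, LSS, NSDHL, EBP, SREBF1, ACACA, SCD and FADS2) and for 0 of the 3 that rose. The count of members that fell was 11 without knockdown 3. Over all genes 1835 of 18755 fell in that fit, against 3141 of 18486 with all libraries. The count of members that rose was 0 without knockdown 2, 1 without control 3, 1 without knockdown 3 and 5 without control 2. Over all genes 1861, 1909, 2182 and 3298 rose in these fits, in that order, against 2920 with all libraries.

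**Figure D1:**
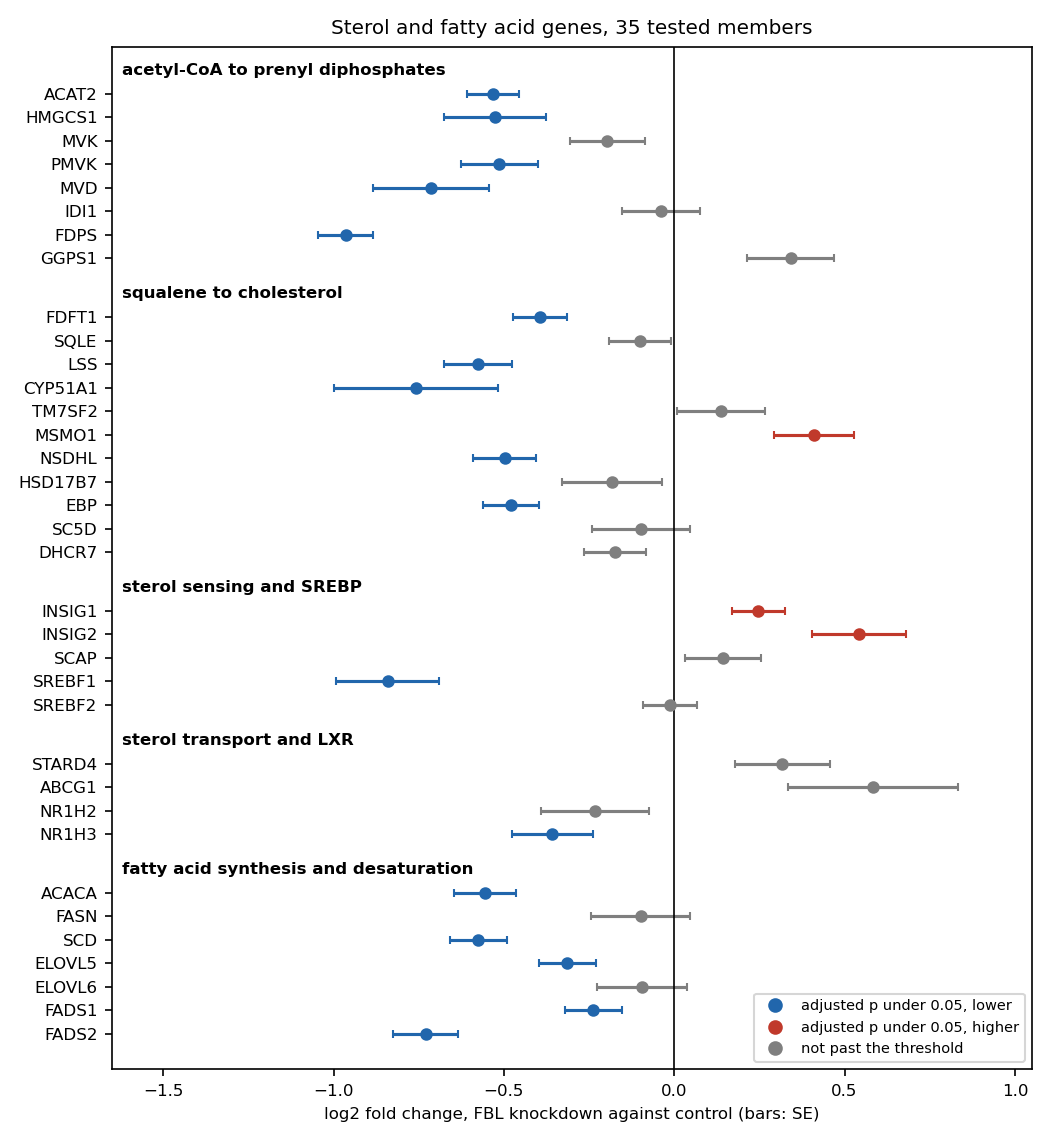
Log2 fold change of each tested member, FBL knockdown against control, with bars of 1 SE from edgeR (n = 3 libraries a group), grouped by role. FDPS lies farthest to the left at -0.96, and the 3 members that rose lie between 0.25 and 0.54.

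The first group of 8 enzymes leads from acetyl-CoA to the prenyl diphosphates. Of these, 5 fell, 0 rose and 3 did not pass, with a median log2 fold change of -0.52. FDPS (ENSG00000160752, GRCh38 chromosome 1, 155308748 to 155320666, plus strand), which makes farnesyl diphosphate, was at 190, 173 and 185 CPM in controls and at 96.9, 87.8 and 95.8 CPM in knockdown libraries. The lowest control thus stood well above the highest knockdown library, a log2 fold change of -0.96 ± 0.08 (SE; adjusted p = 3.49e-05). ACAT2, the cytosolic thiolase that opens the pathway, was at 54.6, 51.6 and 54.0 CPM in controls and at 37.1, 37.5 and 36.2 CPM in knockdown libraries (-0.53 ± 0.08, adjusted p = 0.000525). Within each group its values lay close together, and the groups did not overlap. PMVK, phosphomevalonate kinase, was at 91.9, 108 and 92.9 CPM against 78.6, 58.8 and 67.5 CPM (-0.51 ± 0.11, adjusted p = 0.00579). Knockdown 1 was the highest knockdown library for PMVK and still lay below every control.

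MVD, which decarboxylates mevalonate diphosphate, was at 36.3, 61.1 and 46.7 CPM in controls and at 34.2, 25.6 and 27.9 CPM in knockdown libraries (-0.71 ± 0.17, adjusted p = 0.00864). Control 1 and knockdown 1 were only a little apart, and control 2 was far above the other controls. Over 18 alternatives its adjusted p ran from 1.76e-05 to 0.0591, and it was 0.0586 without knockdown 2 and 0.0591 without knockdown 3. HMGCS1, the cytosolic synthase of hydroxymethylglutaryl-CoA, was low, at 2.96, 2.44 and 3.19 CPM against 1.75, 2.20 and 2.02 CPM (-0.53 ± 0.15, adjusted p = 0.0197). Its lowest control and highest knockdown library were close. Its adjusted p ran from 0.00165 to 0.0908 over 17 alternatives, and the 4 above the threshold were the fit without control 3 (0.0908), without knockdown 1 (0.0643), without knockdown 3 (0.0711) and with a replicate block (0.0724). The other 3 enzymes of this group did not pass. MVK, mevalonate kinase, was at -0.20 (adjusted p = 0.203) and IDI1, the isopentenyl diphosphate isomerase, at -0.04 (0.817). GGPS1, which extends farnesyl to geranylgeranyl diphosphate and so competes with squalene synthesis for its substrate, was at 0.34 (adjusted p = 0.0613). Its 2 groups did not overlap, and it was called higher in 4 of 17 alternatives. FDPS and GGPS1 use the same pool of intermediates, and their ratio in RPKM (the deposited values, scaled for gene length and library total) was 60.2, 62.6 and 54.5 in controls and 26.4, 20.1 and 25.4 in knockdown libraries. Those ratios did not overlap (exact permutation test over samples, 2-sided, p = 0.1, which is the lowest value possible with 3 libraries a group).

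The second group holds 11 enzymes that turn farnesyl diphosphate into squalene and then into cholesterol. Of these, 5 fell, 1 rose and 5 did not pass, with a median of -0.18. FDFT1, squalene synthase, was at 298, 273 and 303 CPM in controls and at 214, 224 and 227 CPM in knockdown libraries (-0.39 ± 0.08, adjusted p = 0.00352). LSS, which closes the ring to lanosterol, lay between 52.9 and 55.1 CPM in the 3 controls, with almost no spread. In the knockdown libraries LSS was at 40.6, 31.4 and 37.3 CPM (-0.58 ± 0.10, adjusted p = 0.00152). Between these 2 steps stands SQLE, the epoxidase commonly described as rate-limiting, and it did not pass, at -0.10 (adjusted p = 0.43) with overlapping groups. The ratio of FDPS to SQLE in RPKM went from 3.97 ± 0.10 in controls to 2.19 ± 0.26 in knockdown libraries (SD over 3 libraries; exact permutation test over samples, 2-sided, p = 0.1).

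Past lanosterol the enzymes diverged. NSDHL, a dehydrogenase that helps remove the methyl groups at carbon 4 of the sterol, was at 22.8, 20.0 and 20.1 CPM against 14.9, 15.4 and 14.2 CPM (-0.50 ± 0.09, adjusted p = 0.00218). EBP, the sterol isomerase, was at 134, 147 and 143 CPM against 108, 99.1 and 96.9 CPM (-0.48 ± 0.08, adjusted p = 0.00145). Neither gene's groups overlapped. MSMO1, the methylsterol monooxygenase that acts just before NSDHL, went the other way, from 10.1, 8.19 and 8.97 CPM to 10.5, 13.1 and 12.6 CPM (0.41 ± 0.12, adjusted p = 0.021). Control 1 and knockdown 1 were nearly level. Its adjusted p ran from 0.000567 to 0.0999 over 18 alternatives, and 5 were above the threshold, among them the fits without control 3 (0.078), knockdown 2 (0.0999) and knockdown 3 (0.0644). CYP51A1, the lanosterol demethylase, averaged 0.459 ± 0.0462 CPM in controls, and the knockdown libraries averaged 0.27 ± 0.0619 CPM (SD over 3 libraries), a log2 fold change of -0.76 ± 0.24 (adjusted p = 0.0328). This value is uncertain on several counts. GENCODE v29 assigns 79.4% of its exon bases also to a second gene on the same strand, AC000120.2, and its 2 pseudogene copies together had 388% of its own level. AC000120.2 has no entry in the deposited counts. The deposited length of CYP51A1, 4074 bases, also differs from its 3584 exon bases in GENCODE v29. Over 17 alternatives its adjusted p ran from 0.0297 to 0.146, and without control 2, control 3, knockdown 2 or knockdown 3 it was 0.073, 0.0695, 0.0905 and 0.146. The other enzymes, TM7SF2 (0.14), HSD17B7 (-0.18), SC5D (-0.10) and DHCR7 (-0.17), did not pass, with adjusted p between 0.163 and 0.64. TM7SF2, a sterol reductase with a GC content of 64.2%, was called higher without control 2, at 0.29 (adjusted p = 0.0325, within a range of 0.0325 to 0.964 over 18 alternatives). With a per-library correction for GC content TM7SF2 was called higher at 0.14 (adjusted p = 0.0387) and DHCR7 lower at -0.15 (adjusted p = 0.0437).

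Reads of the 19 sterol enzymes together came to 1334, 1394 and 1382 CPM in controls and to 1101, 1011 and 1053 CPM in knockdown libraries. Each knockdown library was below each control. Of the 19 enzymes 10 fell, 1 rose and 8 did not pass, and 16 of the 19 log2 fold changes were negative.

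**Figure D2:**
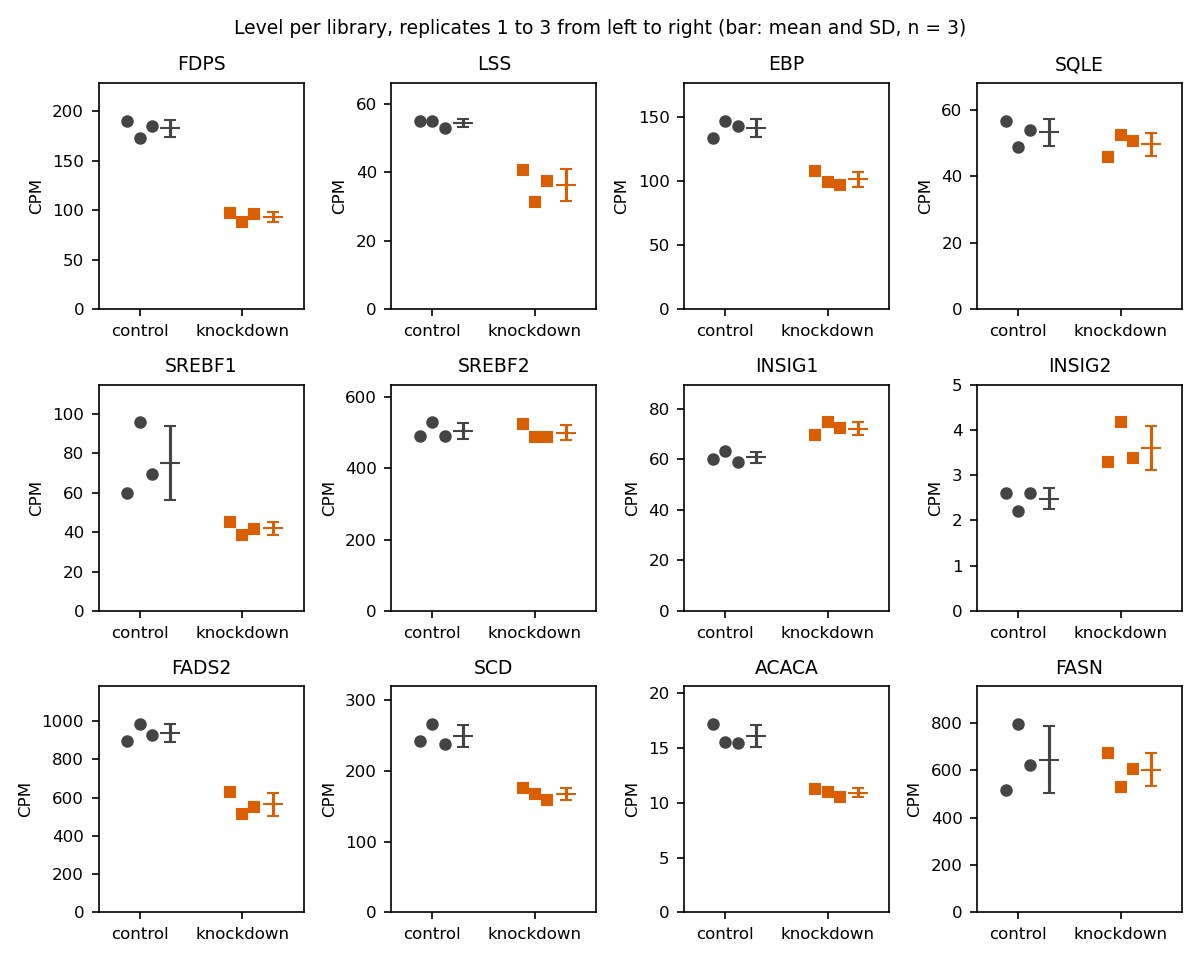
Level of 12 members in CPM (each vertical axis starts at 0), with a point for each of the 6 libraries and a bar for the mean and SD of each group (n = 3). FDPS, LSS, EBP, SREBF1, FADS2, SCD and ACACA separate downwards, INSIG1 and INSIG2 upwards, and SQLE, SREBF2 and FASN overlap.

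The third group holds the sensing machinery, 5 genes, of which 2 rose, 1 fell and 2 did not pass. The genes of the 2 SREBP precursors parted. SREBF1 (ENSG00000072310, GRCh38 chromosome 17, 17810399 to 17837002, minus strand), whose product is best known for driving fatty acid synthesis, was at 59.9, 95.8 and 69.4 CPM in controls and at 45.3, 38.6 and 41.8 CPM in knockdown libraries. The controls were widely spread and all lay above the knockdown libraries, and the log2 fold change was -0.84 ± 0.15 (SE; adjusted p = 0.00179). SREBF2, best known for driving cholesterol synthesis, was at 491, 529 and 491 CPM against 523, 486 and 488 CPM, and its groups overlapped (-0.01 ± 0.08, adjusted p = 0.916). The sign of the SREBF2 value was positive in some alternatives, with a range of -0.05 to 0.05. In RPKM the ratio of SREBF1 to SREBF2 was 0.115, 0.171 and 0.133 in controls and 0.0815, 0.0747 and 0.0806 in knockdown libraries, without overlap (exact permutation test over samples, 2-sided, p = 0.1).

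Both INSIG genes rose, and both encode endoplasmic reticulum proteins that retain the SCAP and SREBP complex. INSIG1 was at 60.3, 63.1 and 59.0 CPM in controls and at 69.5, 74.7 and 72.2 CPM in knockdown libraries (0.25 ± 0.08, adjusted p = 0.0322). INSIG2 (ENSG00000125629, GRCh38 chromosome 2, 118088452 to 118110997, plus strand) was at 2.62, 2.21 and 2.61 CPM against 3.29, 4.17 and 3.37 CPM (0.54 ± 0.14, adjusted p = 0.0122). Neither gene's groups overlapped, and INSIG1 was the more abundant by 26.8 ± 3.6 times in controls and 21.8 ± 2.1 times in knockdown libraries, in RPKM (SD over 3 libraries). RPKM makes no correction for GC content, which was 46.0% for INSIG1 and 35.4% for INSIG2. The INSIG1 call was lost in 7 of 18 alternatives, whose adjusted p ran from 0.00186 to 0.144. It was 0.0631 without control 1, 0.144 without control 3, 0.11 without knockdown 2 and 0.076 without knockdown 3. The INSIG2 call was lost in 2 of 17, with adjusted p of 0.0019 to 0.0656, the highest without knockdown 2. SCAP, the escort of the SREBPs, was at 305, 399 and 358 CPM in controls and at 435, 362 and 377 CPM in knockdown libraries. Its groups overlapped, and it did not pass (0.14 ± 0.11, adjusted p = 0.354). With a per-library correction for GC content SCAP was called higher at 0.15 (adjusted p = 0.0413, within a range of 0.0413 to 0.799 over 18 alternatives).

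The fourth group holds 5 genes of sterol transport and of the LXRs, 4 of them tested. NR1H3, which encodes LXR alpha, fell, from 16.6, 20.3 and 19.6 CPM to 16.8, 12.9 and 14.5 CPM (-0.36 ± 0.12, adjusted p = 0.0388). Control 1 and knockdown 1 were level, so the groups overlapped. The call was lost in 10 of 18 alternatives, with adjusted p of 0.0104 to 0.175, and it was 0.126, 0.166 and 0.175 without control 3, knockdown 2 and knockdown 3. NR1H2, which encodes LXR beta, was at 57.9, 98.7 and 76.8 CPM against 72.7, 62.7 and 63.5 CPM (-0.23 ± 0.16, adjusted p = 0.292). Its 3 controls spanned all of its knockdown values, and without control 1 it was called lower at -0.41 (adjusted p = 0.019, within a range of 0.019 to 0.884 over 18 alternatives). The LXR targets that export cholesterol were scarce in this line. ABCA1 had between 0 and 5 counts in a library and was not tested. ABCG1 averaged 0.52 ± 0.197 CPM in controls, and the knockdown libraries averaged 0.78 ± 0.0755 CPM (SD over 3 libraries), with a log2 fold change of 0.58 (adjusted p = 0.0976). Control 2 lay among its knockdown libraries, and without that library ABCG1 was called higher at 0.94 (adjusted p = 0.00335, within a range of 0.00256 to 0.302 over 17 alternatives). STARD4, which carries sterol between membranes, was at 0.32 (adjusted p = 0.105).

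The fifth group holds 7 enzymes of fatty acid synthesis, of which 5 fell and 2 did not pass. All 7 log2 fold changes were negative, with a median of -0.31. FADS2 (ENSG00000134824, GRCh38 chromosome 11, 61792980 to 61867354, plus strand), the desaturase that begins the synthesis of long polyunsaturated fatty acids, was the most abundant member per length in controls (85.0 RPKM), whereas in knockdown libraries, at 51.1 RPKM, it stood below SREBF2, FASN, SCAP, DHCR7 and PMVK. It was at 894, 986 and 926 CPM in controls and at 628, 512 and 552 CPM in knockdown libraries (-0.73 ± 0.09, adjusted p = 0.000286). SCD, which makes monounsaturated fatty acids, was at 242, 267 and 238 CPM against 175, 167 and 158 CPM (-0.58 ± 0.08, adjusted p = 0.00052). For both genes the groups lay far apart compared with the spread inside them. ACACA, the acetyl-CoA carboxylase that makes malonyl-CoA, was at 17.2, 15.6 and 15.4 CPM in controls and between 10.5 and 11.3 CPM in the 3 knockdown libraries (-0.56 ± 0.09, adjusted p = 0.00107). FASN, the synthase that uses malonyl-CoA, did not follow it: FASN averaged 645 ± 141 CPM in controls, and the knockdown libraries averaged 602 ± 70.1 CPM (SD over 3 libraries), a log2 fold change of -0.10 ± 0.15 (adjusted p = 0.64). The controls of FASN were the widest of the group, from 517 in control 1 to 795 in control 2, and its sign was positive without control 2 (0.08).

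ELOVL5, which lengthens polyunsaturated fatty acids, was at 37.0, 36.7 and 36.9 CPM against 28.5, 31.9 and 28.6 CPM (-0.31 ± 0.08, adjusted p = 0.0147). Its adjusted p ran from 0.00589 to 0.101 over 18 alternatives, with 0.0603 without control 3 and 0.101 without knockdown 3. ELOVL6, which lengthens saturated fatty acids, did not pass (-0.09, adjusted p = 0.62). FADS1, the second desaturase of the polyunsaturated series, was at 105, 118 and 104 CPM against 96.8, 91.2 and 89.1 CPM (-0.24 ± 0.08). This was the weakest call, at an adjusted p of 0.0497, and it was lost in 17 of 18 alternatives, the omission of each of the 6 libraries included, with adjusted p of 0.0433 to 0.257. By GENCODE v29, FADS1 (chromosome 11, 61799625 to 61829318, minus strand) lies within the span of FADS2, on the opposite strand. Their ratio in RPKM, FADS2 to FADS1, was 7.91, 7.77 and 8.26 in controls and 6.02, 5.21 and 5.75 in knockdown libraries, without overlap (exact permutation test over samples, 2-sided, p = 0.1). The ratio of SCD to FASN went from 0.69 ± 0.117 to 0.488 ± 0.0533 (SD over 3 libraries), also without overlap (exact permutation test over samples, 2-sided, p = 0.1), and the ratios of FASN to ACACA overlapped (p = 0.2).

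Levels of different genes can be compared only per length, and RPKM makes no correction for GC content. On the RPKM scale in controls, FADS2 was first of the 36 members at 85.0, followed by PMVK (76.4), FASN (69.0), DHCR7 (67.4) and SREBF2 (66.8). EBP (58.8), SCAP (56.3), FDFT1 (56.1), FDPS (49.2) and SCD (46.5) came next. At the other end ABCA1 was at 0.00176, ABCG1 at 0.0852, CYP51A1 at 0.113, ELOVL6 at 0.387 and STARD4 at 0.453 RPKM. These last had 34.2% to 53.7% GC, whereas FADS2, PMVK, FASN, DHCR7 and SREBF2 had 57.1% to 65.3%. EBP, FDFT1 and SCD, also high, had 47.1% to 53.5%. The part of GC content in this ranking was not tested. HMGCS1 (0.61 RPKM) and ACACA (1.24 RPKM) were low for genes at the head of their pathways, and both fell. Members that fell ran from CYP51A1 to FADS2 on this scale, but 15 of the 17 were among the 26 members at a mean of 10 CPM or more. The others that fell, CYP51A1 and HMGCS1, did not keep their call in every alternative.

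**Figure D3:**
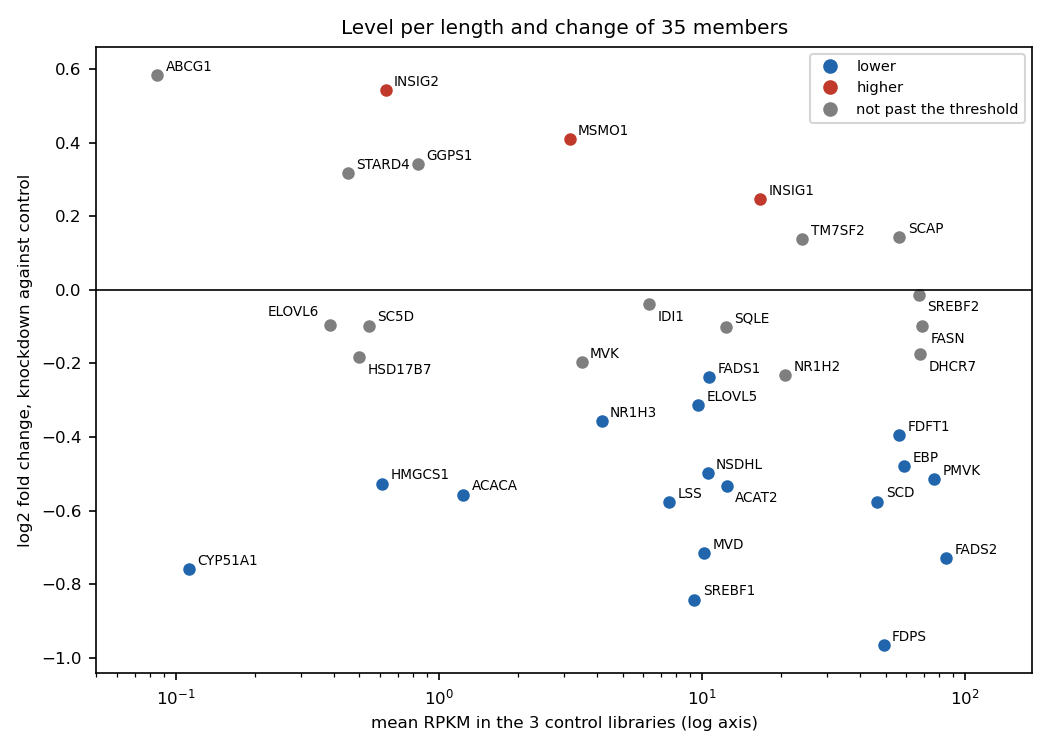
Mean RPKM in the 3 control libraries (horizontal, log axis) against log2 fold change, knockdown against control (vertical), for the 35 tested members. Members that fell run from CYP51A1 at 0.113 RPKM to FADS2 at 85.0 RPKM, and the 3 that rose lie at 0.629, 3.14 and 16.7 RPKM.

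The difference between control 1 and control 2 followed the GC content of the transcripts, and this touches the members unevenly. Among the 14 members with 55% GC or more, 13 were higher in control 2 than in control 1, with FDPS as the exception, against 6 of the 21 members below 55%. Across the 35 members the GC content of the longest transcript and the log2 ratio of control 2 to control 1 had a Pearson r of 0.79, given as a description, since all points share these 2 libraries. MVD, SREBF1, NR1H2, TM7SF2 and FASN, with 60.9% to 65.3% GC, were 1.48 to 1.70 times as high in control 2 as in control 1. SCAP, at 62.3% GC, was 1.31 times as high. ABCG1, at 53.7% GC and under 1 CPM, was 1.79 times as high. With a per-library correction for GC content 17 members fell and 7 rose. Over all 18439 genes of that fit 3926 fell and 4511 rose, against 3141 and 2920 of 18486 in the main fit. This correction added GGPS1, TM7SF2, SCAP and ABCG1 as higher and DHCR7 as lower, and it lost the call of FADS1. Without control 2 and knockdown 1, the libraries richest in GC-rich transcripts, 16 members fell and 4 rose. Over all 18647 genes tested without these 2 libraries, 3626 fell and 3798 rose. Both analyses were added after the data were seen.

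**Figure D4:**
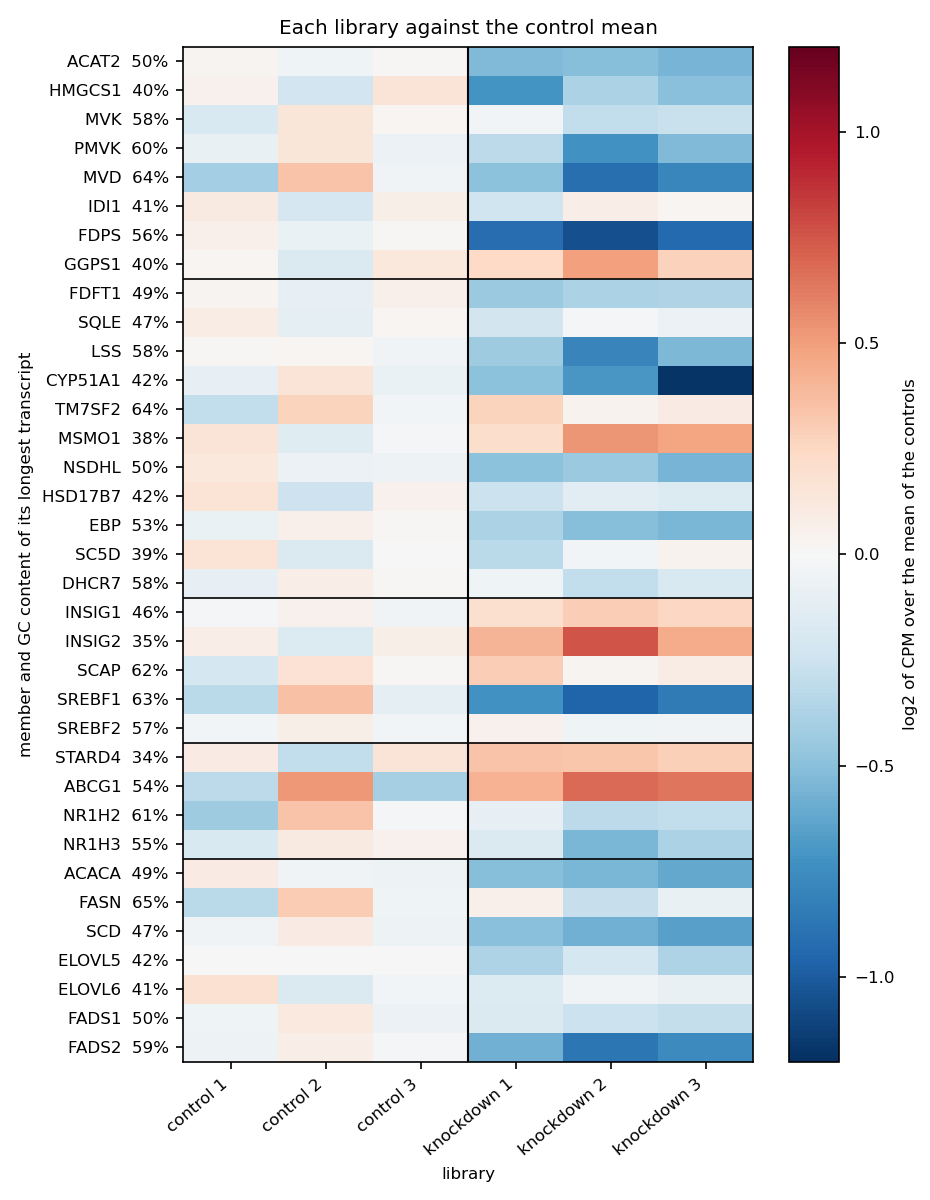
Colours give the log2 of each library's CPM over the mean of the 3 controls, for the 35 tested members in rows by role and the 6 libraries in columns, with the GC content of the longest transcript beside each name. Rows such as FDPS, FDFT1, SCD and ACACA are even within each group, and rows of high GC content such as MVD, SREBF1, NR1H2 and FASN differ between control 1 and control 2.

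Shared sequence limits some of these values. By GENCODE v29 on GRCh38, 16 members share exon bases with another gene, and the strand setting of the counting is not given in the sources used here, so reads of opposite-strand partners cannot be told apart. FDPS shares 693 of its 3718 exon bases with RUSC1-AS1, an antisense gene at a mean of 71.3 CPM with a log2 fold change of -0.96. SREBF1 shares 556 bases with RAI1 (-0.47, adjusted p = 0.0201), and FADS1 and FADS2 share 490 bases with each other. ACAT2 shares 33.9% of its exon bases with SOD2-OT1, 26.5% with SOD2 and 9.23% with TCP1 (-0.26, adjusted p = 0.0342), all on the opposite strand. GGPS1 shares 37.3% of its exon bases with TBCE on the same strand. SOD2-OT1, SOD2 and TBCE have no entry in the deposited counts. Of the 16 members, 14 have a deposited length equal to their GENCODE v29 exon bases. The part of these partners in the members' values was not tested.

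Genes around these pathways, in 8 lists of 133 genes of which 121 were tested, moved in both directions. Of these, 33 fell (27.3%) and 23 rose (19.0%), against 17.0% and 15.8% of all genes tested and 27.7% and 16.2% of genes at 10 CPM or more. The list of fatty acid oxidation, the route opposite to the members, had 10 of 20 lower and 0 higher, with a median of -0.25. Its largest changes were in HADHA (-0.85 ± 0.12) and HADHB (-0.81 ± 0.11), the subunits of the mitochondrial trifunctional protein, and in ACADM (-0.74 ± 0.16), the medium-chain dehydrogenase. Sterol uptake, movement and esterification had 5 of 15 higher and 1 lower, with a median of 0.19. LRP1, a lipoprotein receptor, rose by 0.99 ± 0.12 and LIPA, the lysosomal acid lipase, by 0.50 ± 0.10, whereas OSBP, the oxysterol-binding protein, fell by 0.73 ± 0.11 on the log2 scale. Among oxysterol and LXR partners and targets 4 of 7 rose and 2 fell. The 2 that fell, RXRB (-0.58 ± 0.09) and RXRA (-0.54 ± 0.13), encode the receptors that pair with the LXRs, and APOC1, an LXR target, rose (0.54 ± 0.11).

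The machinery that cleaves SREBPs and degrades sterol-regulated proteins had 5 of 13 lower and 4 higher. ERLIN1, an endoplasmic reticulum protein of the INSIG and SREBP system, went from 78.3 ± 5.1 to 36.8 ± 0.985 CPM (SD over 3 libraries; log2 fold change -1.09 ± 0.08, adjusted p = 1.92e-05). AUP1 (-0.75 ± 0.10) and UBE2G2 (-0.53 ± 0.09), both of the ubiquitination route for sterol-regulated proteins, fell as well. Among other fatty acid genes 5 of 24 fell and 5 rose. ACLY, which supplies cytosolic acetyl-CoA to both pathways, went from 116 ± 7.7 to 61.5 ± 4.44 CPM (SD over 3 libraries; -0.91 ± 0.09, adjusted p = 6.38e-05). ELOVL2, an elongase of very long polyunsaturated fatty acids, rose from 0.394 ± 0.0246 to 1.76 ± 0.392 CPM (2.16 ± 0.21, adjusted p = 6.77e-05), and CBR4, of mitochondrial fatty acid synthesis, was at -0.65 ± 0.14. Other sterol genes had 3 of 9 lower and 2 higher, led by CYB5R3, a reductase that feeds sterol enzymes (-0.64 ± 0.11), ACAT1 (-0.43 ± 0.13) and LBR, a second sterol reductase (-0.35 ± 0.10). In the isoprenoid branch 4 of 15 fell and 1 rose, with RABGGTB (-0.58 ± 0.13), FNTA (0.43 ± 0.12) and FNTB (-0.36 ± 0.09), all subunits of prenyltransferases. Glycerolipid synthesis had 3 of 18 lower (16.7%) and 2 higher (11.1%), near or below the shares over all genes tested, with CHPT1, which makes phosphatidylcholine, at -0.98 ± 0.07, LPIN1, a phosphatidate phosphatase, at 0.73 ± 0.12 and DGAT1, which makes triglyceride, at 0.40 ± 0.12. The DGAT1 call was lost in 6 of 18 alternatives, that of ACAT1 in 10, LBR in 7, FNTB in 3, FNTA in 2 and RXRA in 2, and the other 18 genes named here from the lists kept theirs in each alternative with a value.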

How the data were processed

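The authors deposited whole-number counts per Ensembl gene for 6 libraries and a second table of RPKM values. Per the labels' protocols, total RNA entered a NEBNext Ultra preparation. Tools listed in the submitters' processing notes are cutadapt 1.18, featureCounts, HISAT2 and edgeR, with the build GRCh38. Annotation release and strand setting: not given in the sources used here. When RPKM was recomputed from the deposited counts, lengths and scaled totals, 191796 of 191796 values matched to 1e-06 in relative terms, so both tables hold 1 measurement. In the tables, 0 columns were left unused.

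The groups were compared over the whole table with edgeR 4.0.16 in R 4.3.3: filterByExpr (minimum count 10, minimum total 15), which left 18486 of 31966 genes, TMM scaling, quasi-likelihood test on group alone, Benjamini-Hochberg adjustment and a threshold of 0.05. SEs come from the F statistic. Single ratios had an exact permutation test. Genes were placed by GENCODE v29, and promoters came from RefSeq. The test was tried on simulated counts. Every library held at least 85556322 counts. Relative sampling error is largest for the members with the fewest counts, and it was not separated from other spread.

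Alternatives were RLE, upper-quartile and no scaling, no filter, a stricter filter (1 CPM in 3 libraries and a mean of 5 CPM), DESeq2 1.42.0, limma 3.58.1 (voom, and trend on log2(RPKM + 1) or log2(RPKM + 0.1)), a replicate block, omission of each library, and the 2 GC analyses. FBL and the list counts went through the same alternatives, a choice made after the data were seen. The members, the lists and the motifs were chosen with earlier results of these data known. Every member is accounted for. Values per library are given for members past the threshold at a mean of 1 CPM or more and for the sensing and LXR genes, and each list names up to 3 genes past the threshold at 1 CPM or more with the largest change.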

Additional observations from a re-analysis of the deposited data

How the results depend on the processing

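For the members there were 621 values under 18 alternatives: 539 kept direction and side of the threshold, 56 lost the threshold, 12 gained it and 14 changed sign. The cause was not tested for any of these changes. The members' median log2 fold change of -0.23 became -0.17 with upper-quartile scaling, -0.29 with the stricter filter, which left 26 members, -0.18 on log2(RPKM + 1) and -0.17 with the GC correction, and -0.29 to -0.17 with 1 library left out. The 3 higher members became 1 with library size only, 7 with the GC correction and 0 to 5 with 1 library left out, and the 17 lower members became 11 to 17. Counts over all genes moved as well. There the 2920 higher became 2577 with library size only, 4511 with the GC correction and 1861 to 3298 with 1 library left out. The 3141 lower over all genes became 1835 to 3644 with 1 library left out. Of the list genes, 23 higher became 36 with the GC correction and 15 to 26 with 1 library left out, and 33 lower became 19 to 35. The signs that changed belonged to members near 0. IDI1 was at 0.025 with upper-quartile scaling, 0.00891 with the stricter filter and -0.13 to 0.048 with 1 library left out. SREBF2 was at 0.052 with upper-quartile scaling, 0.036 with the stricter filter, 0.026 with the GC correction and -0.050 to 0.032 with 1 library left out. ELOVL6 was at 0.000384 without control 1, SC5D at 0.00433 without knockdown 1, and FASN at -0.24 to 0.079 with 1 library left out and 0.00312 without the 2 GC-rich libraries. FBL kept its call in all 18. The labels do not say whether replicate numbers pair samples across groups. The correlations of same-numbered deviations were -0.284, -0.198 and 0.0449, which gives no sign of pairing, although GC content also shapes these deviations. With a replicate block 12 members were lower and 0 higher, so that all 3 higher calls were lost. The members' median was then -0.20, and 12 list genes were higher and 19 lower. Over all 18486 genes tested the block left 1987 lower and 1846 higher, against 3141 and 2920 without it. CYP51A1, ABCA1 and ABCG1 had too few counts for close estimates, and intervals from 3 libraries a group are wide for every member.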
